A study of Mus musculus with 6 samples.

Results

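Aminoacyl-tRNA synthetases were examined in 32D cells, an interleukin-3-dependent mouse line of myeloblast-like cells, that carried a retroviral human U2AF1 with the S34F substitution or retroviral human U2AF1 of wild-type sequence. The set held the 36 genes whose names are on a list of 20 cytosolic and 16 mitochondrial enzymes, out of 54532 genes in the count table. All 36 were found under the listed names, and all 36 were among the 13444 genes with enough counts to be tested.

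Each aminoacyl-tRNA synthetase joins an amino acid to the tRNAs that read its codons, so the enzymes set the supply of charged tRNA for translation. Separate nuclear genes encode most of the mitochondrial enzymes, while Gars and Kars each encode the enzyme for both compartments. In mammals several cytosolic enzymes sit in a multi-synthetase complex held together by scaffold proteins, and many cytosolic synthetase genes are targets of ATF4, the transcription factor made when uncharged tRNA or other stresses lead to phosphorylation of the initiation factor eIF2. U2AF1 is the splicing factor subunit that contacts the AG at the end of an intron, and the S34F substitution lies in one of its zinc fingers and recurs in myelodysplastic syndromes.

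There were 3 messenger RNA libraries of S34F cells and 3 of WT cells. In both groups the human U2AF1 was delivered by an MSCV-IRES-GFP retrovirus, in which GFP is made from the same transcript, and the cells were kept in medium with serum and interleukin-3. The labels give no change to the mouse U2af1 gene itself, so its counts cannot check them, and no library of cells without a construct is part of the comparison. The labels do not say whether the 3 libraries of a group came from separate transductions, cultures or clones, so the spread behind each p-value is that between these libraries and may be technical in part.

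The libraries held 16509899 to 19129250 counts each. WT replicates 2 and 3 stood apart from the others by their closeness: the biological coefficient of variation between them was 3.17%, against 16.6% to 21.6% for the other pairs of libraries within a group and 21.7% to 29.6% for pairs between groups. Sampling noise alone did not cover the difference between their counts (chi-square of 2.30 per degree of freedom). They were kept as separate libraries, and results were also computed with the pair summed. The chi-square does not tell separate cultures from repeat preparations of the same culture. The main test counts the 2 as independent, and it called 293 genes, against 20 with the pair summed. The line's own markers were present in part: 10 of 14 myeloid genes were tested and their summed level was 1781 to 2083 CPM (counts per 1000000 counts of the normalised library) in S34F libraries and 1413 to 1659 CPM in WT libraries, with Cebpa listed at 0 in every library. Of them only Spi1, the myeloid transcription factor PU.1, passed the test, at a log2 fold change of 0.60 and an adjusted p of 0.0491 (edgeR quasi-likelihood test, Benjamini-Hochberg adjustment), and this call was lost with WT replicates 2 and 3 summed (0.192), with library totals alone (0.0575), with the GC trend removed (0.112) and in all but 1 of the 6 analyses that left out a library. Markers of T cells summed to at most 0.468 CPM in S34F libraries and 0.669 CPM in WT libraries, those of B cells to at most 2.70 CPM in S34F and 3.71 CPM in WT libraries, those of erythroid cells to at most 2.03 CPM in S34F and 1.46 CPM in WT libraries, and those of fibroblasts to at most 3.07 CPM in S34F and 2.83 CPM in WT libraries. Cd3e, Ms4a1, Hbb-bt and Pdgfra were at 0 throughout. The 5 megakaryocyte genes summed to 750 to 876 CPM in S34F libraries and 587 to 616 CPM in WT libraries, nearly all of it from Itga2b, with Gp1bb at 0 and none of the 4 tested genes called. The largest parts of the myeloid sum were Csf2rb, Ptprc and Ctsg. Their means were 722, 520 and 374 CPM in S34F cells and 594, 456 and 251 CPM in WT cells. Mpo averaged 11.5 CPM in S34F and 9.47 CPM in WT cells. Elane, Kit and Cd34 had at most 8 counts in a library and were not tested. The sums of the myeloid and of the megakaryocyte list were both higher in every S34F library than in any WT library. Of the tested myeloid genes, 9 log2 fold changes were positive and 1 negative, and of the tested megakaryocyte genes 3 were positive and 1 negative. The part of these lists in the results below was not tested.

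The cytosolic enzymes were the abundant ones. Per kilobase of exon, the median over the 20 cytosolic genes was 58.8 CPM, against 6.46 CPM for the 16 mitochondrial genes and 7.14 CPM for all genes tested. The length used is that of all annotated exons of a gene together, and the order of genes depends on it. Without division by length, Eprs was the highest cytosolic gene, at 690 CPM in S34F cells and 610 CPM in WT cells. Hars was then the lowest, at 95.6 CPM in S34F cells and 83.5 CPM in WT cells. Gars, for glycyl-tRNA, had the highest mean level of all members at 135 CPM per kilobase, and Nars, for asparaginyl-tRNA, followed at 129. Gars had 503, 339 and 405 CPM in the S34F libraries and 433, 420 and 432 CPM in the WT libraries, in the order of the replicate numbers here and throughout. The WT values lay inside the range of the S34F values, and the log2 fold change was -0.04 ± 0.15 (SE).

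At the low end of the cytosolic group stood Cars, for cysteinyl-tRNA, at 18.5 CPM per kilobase, and Qars, for glutaminyl-tRNA, at 20.9. Cars was counted at 131, 116 and 119 CPM in S34F libraries and at 137, 117 and 113 CPM in WT libraries, so its groups overlapped. The top of the mitochondrial group reached this range: Lars2, for leucine, averaged 23.3 CPM per kilobase and Rars2, for arginine, 18.1. The other extreme was Fars2, for phenylalanine, at 3.55 CPM per kilobase, with 21.4, 20.9 and 18.0 CPM in S34F libraries against 23.7, 20.0 and 18.5 CPM in WT libraries. By the S34F means per kilobase, 15 of the 16 mitochondrial genes lay below the lowest cytosolic gene and 18 of the 20 cytosolic genes lay above the highest mitochondrial gene. By the WT means these counts were 14 of 16 and 19 of 20, with Lars2 at 27.1 CPM per kilobase in S34F cells and 19.6 in WT cells.

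**Figure D1:**
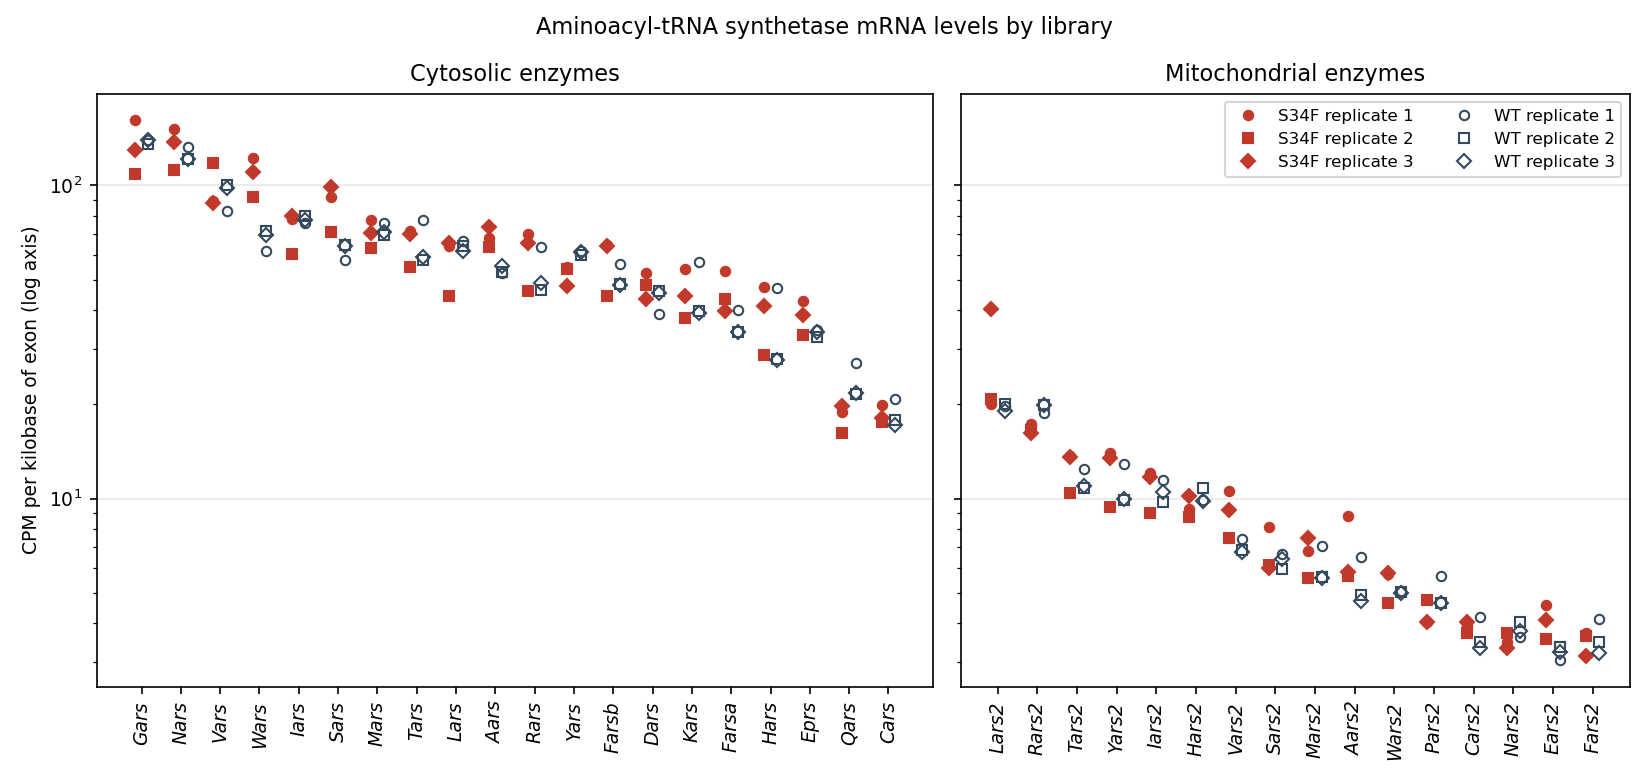
Level of each synthetase gene in CPM per kilobase of exon on a log axis, with S34F libraries as filled red points left of WT libraries as open points, and genes ordered by mean level within each compartment. Cytosolic genes run from Gars (mean 135) to Cars (18.5) and mitochondrial genes from Lars2 (23.3) to Fars2 (3.55), and the S34F replicate 3 point of Lars2 lies apart from the other 5.

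Between genotypes, 1 of the 20 cytosolic genes rose in S34F cells, 19 did not pass the test at an adjusted p under 0.05, and none of the 16 mitochondrial genes passed it in either direction. Over all 13444 genes tested, 2.18% passed, 1.58% as higher in S34F cells and 0.595% as lower, and 1 call among 36 members is near that share. The gene that rose was Wars, the cytosolic tryptophanyl-tRNA synthetase. With the unadjusted p under 0.05 as the rule, 5 members were higher and 1 was lower in S34F cells, where 22.0% of all genes passed, 11.9% as higher and 10.1% as lower. In these bulk libraries a change in the share of some cells cannot be told apart from a change in the RNA of each cell.

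Wars (ENSMUSG00000021266, chromosome 12, 108860030 to 108894174, minus strand, mm10) had 420, 315 and 381 CPM in the S34F libraries, against 212, 245 and 239 CPM in the WT libraries. Every S34F library lay above every WT library, with means of 372 ± 52.9 CPM in S34F cells and 232 ± 17.6 CPM in WT cells (SD, n = 3 each). The log2 fold change was 0.68 ± 0.13 (SE), a 1.60-fold higher level, with an adjusted p of 0.0446 by edgeR's quasi-likelihood test. This p lay close to the threshold: the call was lost without S34F replicate 1 or 3 and without WT replicate 2 or 3, where the log2 fold change was 0.58, 0.67, 0.72 and 0.70 with adjusted p-values of 0.142, 0.129, 0.177 and 0.187. It was also lost when WT replicates 2 and 3 were summed (0.71, adjusted p = 0.175), when libraries were scaled by their totals alone (0.64, 0.0501) and when the trend with GC content was removed (0.58, 0.0932).

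Sars (ENSMUSG00000068739, chromosome 3, 108424865 to 108445209), the cytosolic seryl-tRNA synthetase, was counted at 472, 366 and 506 CPM in S34F libraries and at 296, 333 and 329 CPM in WT libraries. The groups did not overlap. The log2 fold change was 0.49 ± 0.14 (SE), and the adjusted p of 0.105 missed the threshold. There were 4 other analyses that called it, with an adjusted p of 0.0425 with no filter on low counts, 0.0273 by DESeq2, 0.0353 with the replicate number as a block and 0.0459 without S34F replicate 2, the lowest of its S34F libraries.

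Aars (ENSMUSG00000031960, chromosome 8, 111033144 to 111057664), the cytosolic alanyl-tRNA synthetase, was counted at 632, 589 and 683 CPM in S34F libraries and at 485, 492 and 512 CPM in WT libraries, again with no overlap. Its log2 fold change was 0.35 ± 0.11 (SE) at an adjusted p of 0.116, and DESeq2 and the block by replicate number called it (0.0283 and 0.0472). Exosc6, an exosome subunit gene on the same strand, shares 1326 exon bases with Aars, 14.3% of the exon bases of Aars, and was listed at 0 counts in every library. In the annotation used here the shared 1326 bases are the whole exon length of Exosc6, so no read from them was credited to Exosc6. Whether such reads were counted for Aars or left out is not known.

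Farsa and Farsb encode the alpha and beta subunits of the cytosolic phenylalanyl-tRNA synthetase. Farsa was counted at 241, 197 and 180 CPM in S34F libraries and at 182, 154 and 154 CPM in WT libraries. S34F replicate 3 lay below WT replicate 1, so the groups overlapped, and the log2 fold change of 0.33 ± 0.14 (SE) had an unadjusted p of 0.0400 and an adjusted p of 0.204. The log2 fold change of Farsb was 0.18 ± 0.16 (SE).

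Qars and Yars were the cytosolic genes with all S34F libraries below all WT libraries. Qars (chromosome 9, 108507706 to 108515941) was counted at 124, 106 and 130 CPM in S34F libraries and at 177, 142 and 143 CPM in WT libraries, with a log2 fold change of -0.36 ± 0.13 (SE) and an adjusted p of 0.166. Yars, the tyrosyl-tRNA synthetase, was counted at 326, 320 and 283 CPM in S34F libraries and at 367, 356 and 364 CPM in WT libraries, with a log2 fold change of -0.23 ± 0.11 (SE) and an adjusted p of 0.260. Neither value passed the test.

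In the other 14 cytosolic genes the S34F and WT libraries overlapped: Cars, Dars, Eprs, Farsb, Gars, Hars, Iars, Kars, Lars, Mars, Nars, Rars, Tars and Vars. Their log2 fold changes ran from -0.14 for Lars, the leucyl-tRNA synthetase, to 0.20 for Hars and Rars, the histidyl- and arginyl-tRNA synthetases. Hars, with 116, 70.1 and 101 CPM in S34F libraries and 115, 68.1 and 67.6 CPM in WT libraries, had the largest SE of the cytosolic genes at 0.24. Hars and Hars2 lie head to head and share 195 exon bases on opposite strands, 8.0% of the exon bases of Hars and 4.6% of those of Hars2. Over all 20 cytosolic genes, 12 log2 fold changes were positive and 8 negative, with a median of 0.08, against a median of 0.00 over all genes tested.

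**Figure D2:**
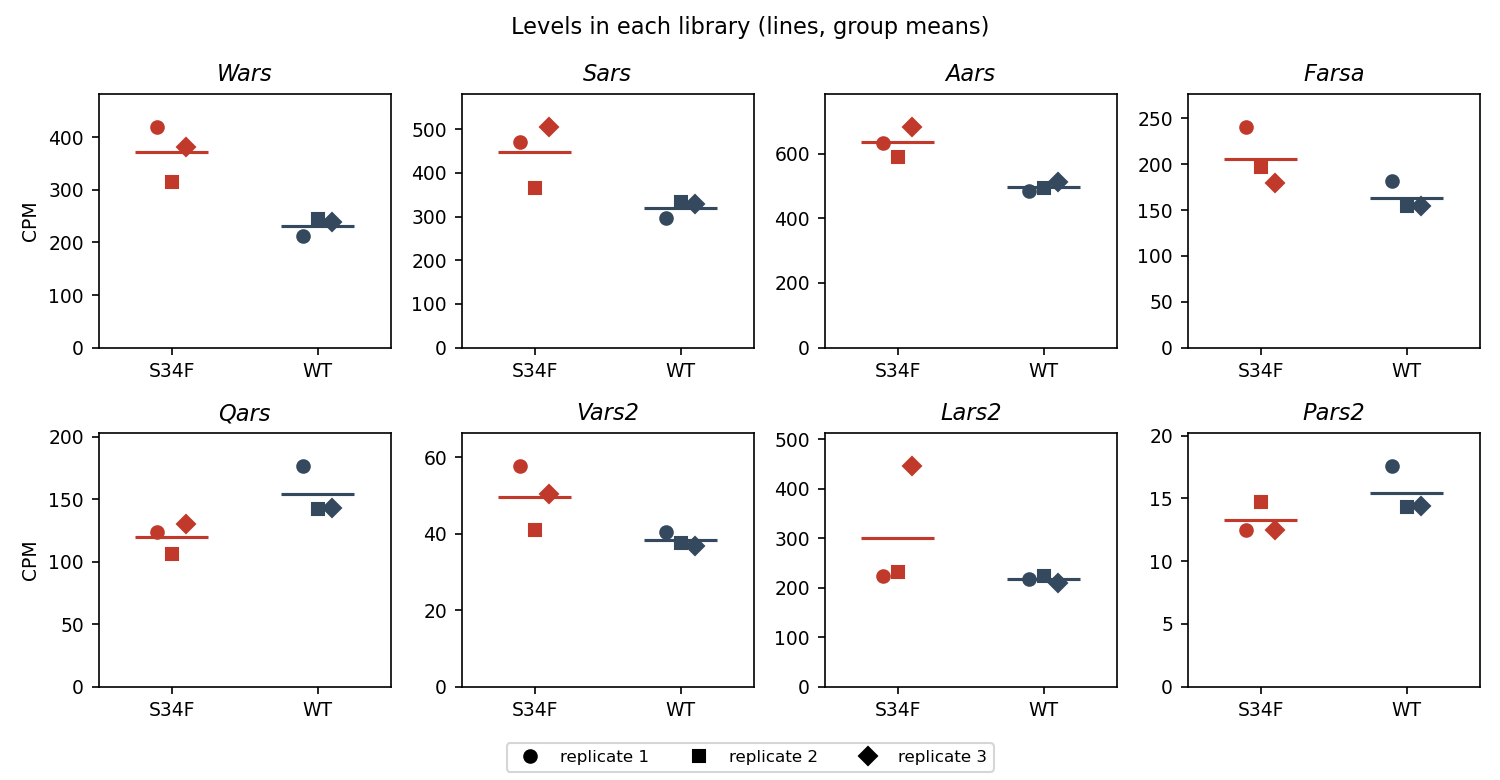
CPM in each library for 8 synthetase genes, S34F libraries left of WT libraries, with the group mean as a line and the replicate number as the marker shape. Wars, Sars, Aars and Vars2 have all S34F libraries above all WT libraries and Qars has them all below, while for Lars2 the S34F mean of 300 CPM is carried by replicate 3 at 447 CPM.

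Among the mitochondrial enzymes, Vars2, for valine, had the smallest p. Vars2 (chromosome 17, 35655634 to 35667592) was counted at 57.8, 40.9 and 50.3 CPM in S34F libraries and at 40.5, 37.5 and 36.8 CPM in WT libraries. The groups were apart only narrowly, at 40.9 CPM in the lowest S34F library and 40.5 CPM in the highest WT library. The log2 fold change of 0.38 ± 0.14 (SE) had an unadjusted p of 0.0289 and an adjusted p of 0.176. Ears2, for glutamate, also had its groups apart, at 23.6, 18.3 and 21.1 CPM in S34F libraries and 15.8, 17.3 and 16.7 CPM in WT libraries, with a log2 fold change of 0.34 ± 0.15 (SE) and an adjusted p of 0.228.

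Lars2 (chromosome 9, 123366927 to 123462666), the mitochondrial leucyl-tRNA synthetase, had the largest fold change of its group. It had 223, 231 and 447 CPM in the S34F libraries, against 218, 223 and 210 CPM in the WT libraries. The S34F libraries lay above the WT libraries only narrowly, with the lowest S34F and the highest WT library both at 223 CPM after rounding, and the fold change turned on a single library: with all 6 libraries the log2 fold change was 0.47 ± 0.25 (SE, adjusted p = 0.306), and without S34F replicate 3 it was 0.07 (adjusted p = 0.804). In the same library Gm26917, a noncoding gene annotated beside a pseudogene of 18S ribosomal RNA and looked up after its values had been seen, was also at its highest, with 207, 267 and 370 CPM in S34F libraries and 183, 236 and 205 CPM in WT libraries. A sequence search found no match of at least 95% identity over at least 150 bases between transcripts of Lars2 and Gm26917. Shorter or less similar stretches were outside that search. Whether the Gm26917 reads have a part in the Lars2 count was not tested.

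Rars2 was the mitochondrial gene with its S34F libraries below its WT libraries, at 48.0, 46.1 and 45.0 CPM in S34F cells and 51.7, 55.2 and 55.1 CPM in WT cells. Its log2 fold change was -0.22 ± 0.10 (SE) with an adjusted p of 0.254. Pars2, for proline, had the lowest fold change of its group beside Rars2 and the lowest counts of all members, down to 210 in a library. It stood at 12.5, 14.7 and 12.5 CPM in S34F libraries and at 17.6, 14.3 and 14.4 CPM in WT libraries, a log2 fold change of -0.22 ± 0.16 (SE) at an adjusted p of 0.464, with overlapping groups.

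The remaining 11 mitochondrial genes, Aars2, Cars2, Fars2, Hars2, Iars2, Mars2, Nars2, Sars2, Tars2, Wars2 and Yars2, overlapped between groups as well. Their log2 fold changes ran from -0.12 for Nars2 to 0.33 for Aars2. Iars2, for isoleucine, shares 2034 exon bases, 22.9% of its exon bases, with Rab3gap2 on the opposite strand. Rab3gap2 averaged 90.4 CPM in S34F cells and 92.8 CPM in WT cells beside Iars2 at 97.4 CPM in S34F cells and 93.9 CPM in WT cells, and whether counting used strand is not given in the sources used here. Over the 16 mitochondrial genes, 11 log2 fold changes were positive and 5 negative, with a median of 0.09. The unadjusted p of edgeR was under 0.05 for 1 of the 16, and DESeq2 and limma-voom called 0 of them as well.

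Across all 36 members, 6 had every S34F library above every WT library and 3 had every S34F library below, where 27.1% of all genes tested had such separate groups, 14.0% above and 13.1% below. The 6 were Wars, Sars, Aars, Vars2, Ears2 and Lars2, and the 3 were Qars, Yars and Rars2.

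**Figure D3:**
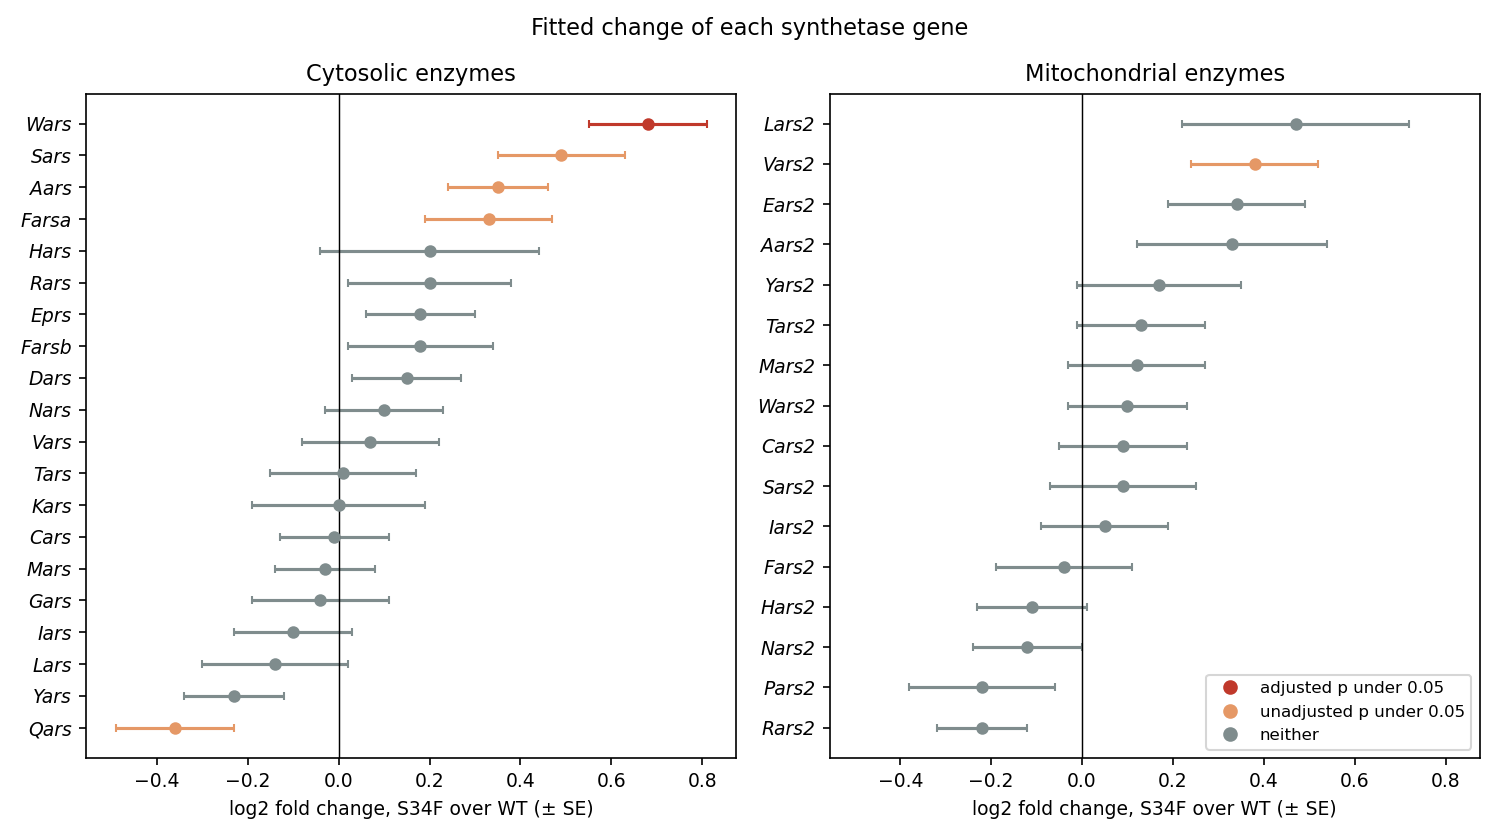
Log2 fold change of S34F over WT for each gene with its standard error as the bar, cytosolic enzymes left and mitochondrial enzymes right, coloured by the edgeR p. Only Wars (0.68) has an adjusted p under 0.05, with Sars (0.49) next among cytosolic genes and Qars (-0.36) lowest.

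Within each genotype many of the enzymes were high or low in the same library. S34F replicate 2 was the lowest of the S34F libraries for 16 of 20 cytosolic and 10 of 16 mitochondrial genes, against 34.6% of all genes tested. S34F replicate 1 was the highest for 14 of 20 and 9 of 16, against 32.7% of all genes. The level of a gene in S34F replicate 2 as a percentage of its level in S34F replicate 1 had a median of 77.4% over the cytosolic genes, 81.5% over the mitochondrial genes and 102% over all genes.

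In WT cells, replicate 1 was the highest library for 14 of 20 cytosolic and 11 of 16 mitochondrial genes, against 42.0% of all genes. WT replicates 2 and 3 differed by a median of 2.24% over the cytosolic and 3.96% over the mitochondrial genes, close as they were over all genes (6.01%).

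The summed level of the 20 cytosolic genes was 7197, 5908 and 6760 CPM in the S34F libraries, against 6315, 6000 and 6029 CPM in the WT libraries. The S34F mean was 8.29% above the WT mean, but S34F replicate 2 lay below all 3 WT libraries. Without Wars, Sars and Aars, named here for their own values, the sums were 5672, 4638 and 5190 CPM in S34F libraries and 5321, 4930 and 4949 CPM in WT libraries, a difference of 1.97%.

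The 16 mitochondrial genes summed to 905, 782 and 1098 CPM in S34F libraries and 857, 796 and 782 CPM in WT libraries. The S34F mean was 14.3% above the WT mean with Lars2 and 5.58% above it without Lars2, where the S34F libraries stood at 682, 551 and 650 CPM and the WT libraries at 639, 573 and 572 CPM. The ratio of the cytosolic to the mitochondrial sum was 7.95, 7.56 and 6.16 in S34F libraries and 7.37, 7.54 and 7.71 in WT libraries. Without Lars2 it was 10.5, 10.7 and 10.4 in S34F libraries and 9.88, 10.5 and 10.5 in WT libraries, a range of 9.88 to 10.7 over the 6 libraries.

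For 13 amino acids the list paired 1 cytosolic gene with the mitochondrial gene of the same name, and the ratio between them within a library does not depend on its depth. In all 13 pairs the cytosolic gene was higher per kilobase in every library, from a mean ratio of 2.69 for Lars over Lars2 to 35.1 for Nars over Nars2. The size of a ratio does depend on the annotated exon lengths, 5368 bases for Lars and 11089 for Lars2. Without division by length, Lars2 at 447 CPM lay above Lars at 351 CPM in S34F replicate 3. Wars over Wars2 was 21.2, 19.7 and 19.1 in S34F libraries and 12.1, 14.1 and 13.9 in WT libraries, the largest difference of log2 ratios among the pairs at 0.58. The Wars2 gene of mitochondrial tryptophanyl-tRNA synthetase itself had 34.2, 27.7 and 34.3 CPM in S34F libraries and 30.2, 30.0 and 29.8 CPM in WT libraries.

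Sars over Sars2 was 11.3, 11.6 and 16.4 in S34F libraries and 8.67, 10.8 and 9.98 in WT libraries, also with S34F above. Tars over Tars2, for threonine, was 5.21, 5.31 and 5.13 in S34F libraries and 6.24, 5.34 and 5.36 in WT libraries, with S34F below, narrowly, at 5.31 in the highest S34F library and 5.34 in the lowest WT library. In the other 10 pairs the groups overlapped. Lars over Lars2 varied most within S34F cells, at 3.19, 2.12 and 1.62, against 3.37, 3.18 and 3.24 in WT cells.

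**Figure D4:**
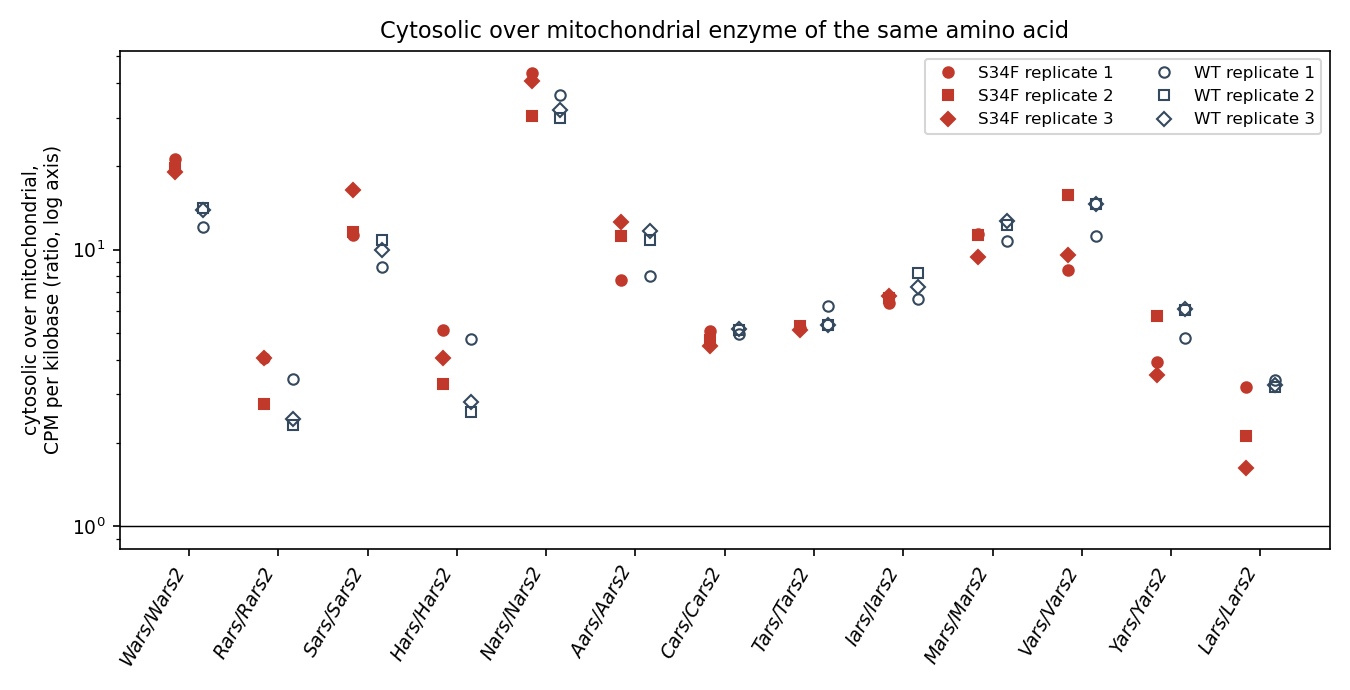
Ratio of the cytosolic to the mitochondrial gene of the same amino acid in each library, in CPM per kilobase on a log axis, S34F libraries filled and left of WT libraries. All points lie above 1, and the S34F points of Wars over Wars2 (19.1 to 21.2) lie above the WT points (12.1 to 14.1).

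The promoters of the set were searched for the core of the amino acid response element, the sequence TGATGNAA (N for any base) on both strands, which ATF4 with a C/EBP partner binds in mouse and human genes. RefSeq promoters (GRCm38.p6, the build mm10), running from 250 bases before to 50 after the transcript start, were at hand for 27 of the 36 members. They were not for Wars, Cars, Lars, Vars, Rars, Hars, Nars, Pars2 and Hars2. The motif was in the promoters of 5 of those 27 genes, 18.5%, and in 1304 of all 32851 promoters, 3.97%. A window of 30 bases around a match is given for each of the 5 genes on its own strand, with the match in capitals, to show which letters carry the motif and in which direction; TTGCATCA and TTTCATCA are the motif read on the other strand.

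Aars, chr8:111033840-111033869, plus strand: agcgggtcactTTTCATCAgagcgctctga
Gars, chr6:55037960-55037989, plus strand: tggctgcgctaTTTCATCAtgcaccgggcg
Iars, chr13:49682126-49682155, plus strand: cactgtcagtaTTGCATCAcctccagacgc
Tars, chr15:11399655-11399684, minus strand: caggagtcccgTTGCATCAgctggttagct
Yars, chr4:129189895-129189924, plus strand: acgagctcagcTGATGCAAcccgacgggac

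The 5 genes with a match did not move in one direction: their log2 fold changes were 0.35 for Aars, 0.01 for Tars, -0.04 for Gars, -0.10 for Iars and -0.23 for Yars, and none was called. Sars, with the larger fold change of 0.49, had no match in its window. A match is a string of letters and does not show binding, and a window without it says nothing of the rest of the gene.

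With Wars the only member called, no grouping of the enzymes themselves could hold more than 1 call. Of the 12 cytosolic genes listed as linked to ATF4, Wars rose, 11 did not pass the test, 6 log2 fold changes were positive and 6 negative, and the median was 0.00. Of the 8 enzymes of the multi-synthetase complex none passed the test, with 3 positive, 5 negative and a median of -0.02, and the smallest p was that of Qars. The 3 scaffold genes of the complex had log2 fold changes of -0.02 for Aimp1, 0.23 for Aimp2 and 0.27 for Eef1e1, none called. By catalytic fold, the 18 enzymes of class I had a median of 0.08 with Wars as the 1 call, and the 17 of class II a median of 0.10 with none. Eprs, which joins a glutamyl-tRNA and a prolyl-tRNA synthetase of different folds in a single protein, was put in neither class.

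The regulators of the amino acid response, which sense uncharged tRNA and other stresses or act after ATF4, held 4 calls. Of 16 tested genes of 18 listed, 3 rose and 1 fell, where 2.18% of all genes tested passed. The list was chosen with earlier results of these data known, so its share of calls is a description and not a test. Log2 fold changes were positive for 10 and negative for 6, with a median of 0.34. Atf3 and Chac1, with at most 1 count in a library, were not tested. Trib3, a pseudokinase gene induced by ATF4, was counted at 348, 350 and 484 CPM in S34F libraries and at 141, 190 and 192 CPM in WT libraries (log2 fold change 1.18 ± 0.18 SE, edgeR adjusted p = 0.0221). Ppp1r15a, which encodes the subunit that directs a phosphatase to eIF2, stood at 200, 244 and 159 CPM in S34F libraries and at 102, 86.3 and 96.6 CPM in WT libraries (1.08 ± 0.16, 0.0216).

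Cebpb, a transcription factor gene of the C/EBP family, was counted at 323, 336 and 238 CPM in S34F libraries and at 188, 114 and 119 CPM in WT libraries (log2 fold change 1.09 ± 0.21 SE, edgeR adjusted p = 0.0438). Eif2ak1, the heme-regulated eIF2 kinase, was the gene that fell, at 93.2, 96.5 and 89.1 CPM in S34F libraries and 136, 129 and 124 CPM in WT libraries (-0.48 ± 0.10, 0.0497). In all 4 genes the groups did not overlap. With WT replicates 2 and 3 summed none of the 4 was called, with adjusted p-values of 0.0730 for Trib3, 0.0960 for Ppp1r15a, 0.171 for Cebpb and 0.216 for Eif2ak1. With each of the 6 libraries left out in turn, Trib3 was called in 2 of the 6 analyses, Ppp1r15a in 3, Cebpb in 1 and Eif2ak1 in 1, all with the same direction. Removing the GC trend ended the calls of Trib3 (log2 fold change 0.99, adjusted p = 0.0528), Cebpb (0.84, 0.0732) and Eif2ak1 (-0.51, 0.0520), and Eif2ak1 was also not called with RLE scaling (0.0508) or by limma-voom (0.0518). Atf4 itself, named after its values were seen, had 626, 505 and 543 CPM in S34F libraries and 487, 344 and 342 CPM in WT libraries, a log2 fold change of 0.51 at an adjusted p of 0.127.

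The genes that supply amino acids gave no calls. Of 17 tested genes of amino acid synthesis, 12 log2 fold changes were positive and 5 negative with a median of 0.12, and the smallest p was that of Gpt2, a mitochondrial alanine transaminase (-0.36, adjusted p = 0.106). Of 16 amino acid transporters, 13 were positive and 3 negative with a median of 0.14, and the smallest p was that of Slc3a2, the heavy chain of several amino acid exchangers, at 627, 616 and 616 CPM in S34F libraries and 559, 435 and 442 CPM in WT libraries (0.37, adjusted p = 0.146).

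Of the genes that act on tRNA before charging, 20 of 21 were tested and none was called, with 15 positive, 5 negative and a median of 0.22. The smallest p in that group was that of Osgep, of the complex that makes the threonylcarbamoyl modification, at 26.6, 22.7 and 28.2 CPM in S34F libraries and 17.2, 16.1 and 17.8 CPM in WT libraries (log2 fold change 0.60, adjusted p = 0.0695). The 4 genes of trans-editing and D-aminoacyl-tRNA deacylation, which clear mischarged tRNA, had a median of 0.16 and no call, and the smallest p was that of Prorsd1 (0.54, adjusted p = 0.0678).

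Downstream of charging, 1 of 9 cytosolic elongation and release factor genes rose. It was Eef2k, the kinase that inhibits elongation factor 2, at 70.0, 64.3 and 78.6 CPM in S34F libraries and 35.7, 47.5 and 47.1 CPM in WT libraries (log2 fold change 0.71 ± 0.14 SE, edgeR adjusted p = 0.0492), and it was not called with WT replicates 2 and 3 summed (adjusted p = 0.145), with library totals alone (0.0715) or with the GC trend removed (0.0961). With a library left out Eef2k was called in 1 of 6 analyses. The median of that list was 0.15. No gene of the other mitochondrial lists was called. The 10 mitochondrial translation factor genes had a median of -0.11 with 7 negative, and the 4 partners in mitochondrial charging, which amidate mischarged glutamyl-tRNA or formylate the initiator, had a median of -0.13 with 3 negative. The smallest p-values there were those of Mtif3, an initiation factor (-0.36, adjusted p = 0.199), and Gatc, an amidotransferase subunit (-0.30, adjusted p = 0.203).

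**Figure D5:**
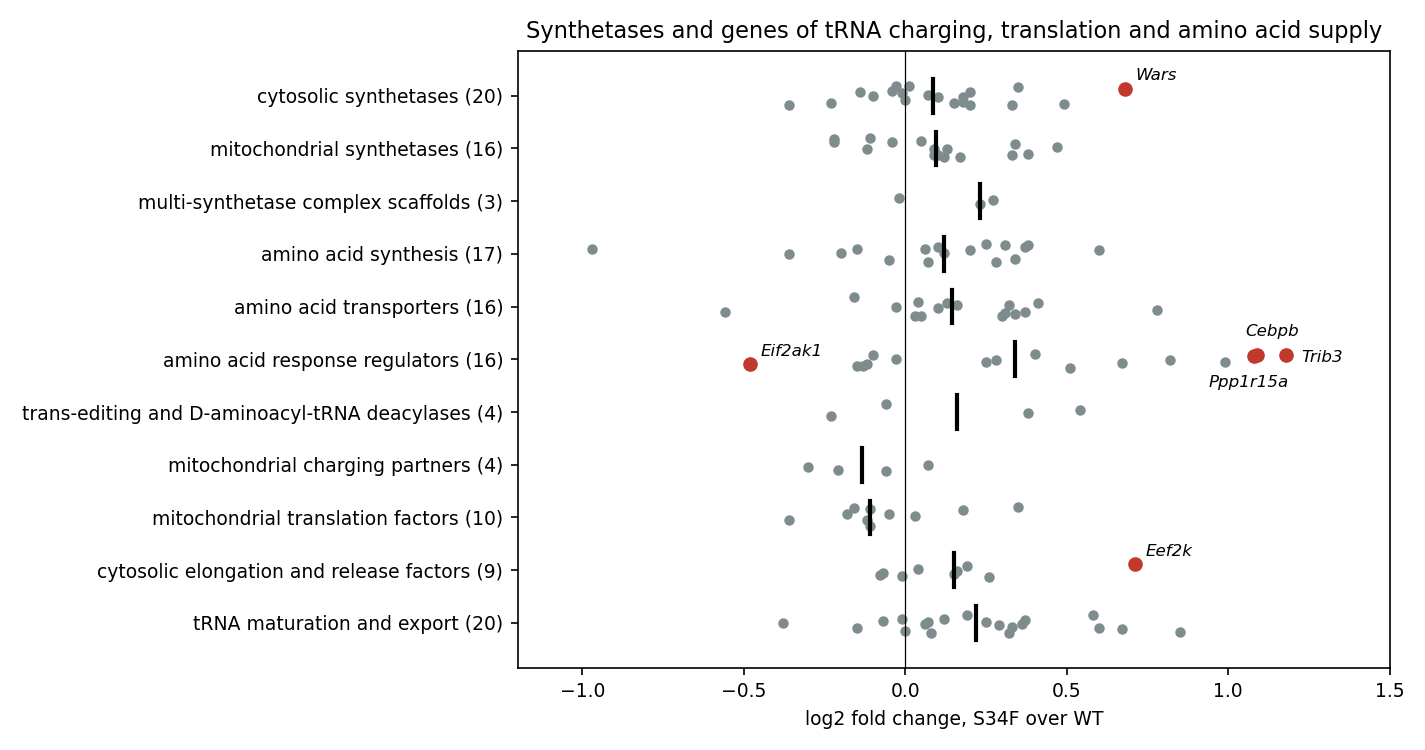
Log2 fold change of S34F over WT for each tested gene of the synthetases and of the lists of tRNA charging, translation and amino acid supply, with the number tested in brackets, the list median as a bar, and genes with an edgeR adjusted p under 0.05 in red and named. Among the synthetases only Wars is red, beside 4 regulators of the amino acid response and Eef2k.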

How the data were processed

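The deposited table holds whole-number read counts per Ensembl gene for 6 libraries, made by the authors with HISAT2, featureCounts and the build mm10, per the submitters' processing notes. Per the labels' protocols, libraries were made with a directional kit. Not given in the sources used here are the tool versions, the annotation release, the strand setting and how reads with more than 1 match were counted. Counts were tested with edgeR 4.0.16 (R 4.3.3): filterByExpr left 13444 genes, libraries were scaled by TMM, and robust quasi-likelihood tests, two-sided, compared S34F with WT with genotype alone in the model (4 residual degrees of freedom). P-values were adjusted by Benjamini-Hochberg over all genes tested, with a threshold of 0.05. The SE is the log2 fold change divided by the square root of F. CPM are TMM-normalised. CPM per kilobase uses the union of exons in GENCODE M21, which also gave coordinates, GC content and overlaps, and near-copies were searched by BLAST at 95% identity over at least 150 bases. The procedure was tested on simulated counts with 200 changed genes. It called 62.6% of the genes changed 2-fold and 88.8% of those changed 4-fold, and 8 of its 157 calls were unchanged genes. Changes smaller than 2-fold were not simulated. The simulated libraries were drawn independently of each other, without a pair as close as the closest pair of WT libraries. Whether the simulated shares of recovered genes and of wrong calls hold for the real libraries was therefore not tested.

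Members and lists were chosen with earlier results of these data known. Values per library are given for members that were called, had an unadjusted p under 0.05, were the most or least abundant per length in their group or had its largest or smallest fold change, and other values were added after they were seen. Of each other list, called genes or else the gene with the smallest p are named. Gcn1 was found under its older symbol. Alternatives were RLE and total-count scaling, no filter, a filter of 1 CPM in 3 libraries, DESeq2 1.42.0, limma-voom (limma 3.58.1), a block by replicate number, WT replicates 2 and 3 summed, removal of the GC trend, and leaving out each library. Some items, among them a promoter sequence, are not reported here.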

Additional observations from a re-analysis of the deposited data

How the results depend on the processing

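The number of genes called depended on the analysis: 293 in the analysis reported, 763 with no filter on low counts, 1216 by DESeq2, 1418 with a block by replicate number, 20 with WT replicates 2 and 3 summed, 153 with the GC trend removed, and 19 to 1177 when a library was left out. Of the cytosolic genes, 2 were called with no filter, 3 by DESeq2, 3 with the block, 0 with library totals alone, 0 with the WT pair summed, 0 with the GC trend removed, and 0 to 2 when a library was left out. The mitochondrial count was 0 in every alternative. Both medians stayed positive in every alternative, at 0.01 to 0.16 for cytosolic and 0.05 to 0.19 for mitochondrial genes when a library was left out. The labels do not say whether the replicate numbers pair the libraries. Deviations from the group means correlated at 0.33, 0.16 and 0.07 between libraries of the same number. Between libraries of different numbers the correlations ran from -0.26 to 0.15.

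Log2 fold changes near 0 changed sign, and the cause was not tested. Tars was -0.02 with library totals alone and -0.06 with the WT pair summed. Kars was 0.00 with no filter, 0.01 by limma-voom and 0.01 with the block. With the GC trend removed Vars was -0.13, Cars2 -0.02 and Sars2 -0.07. When a library was left out, Nars ran from -0.01 to 0.21, Tars from -0.07 to 0.17, Vars from -0.08 to 0.14, Kars from -0.16 to 0.21, Cars from -0.07 to 0.09, Gars from -0.21 to 0.09, Iars from -0.17 to 0.02, Lars from -0.23 to 0.02, Mars from -0.12 to 0.04, Iars2 from -0.04 to 0.18, Sars2 from -0.07 to 0.17 and Fars2 from -0.12 to 0.07. Every member was counted at least 210 times in each library.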
